A study of Homo sapiens with 12 samples.

Results

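The 10 genes described here belong to the neutrophil programme and were chosen by symbol from the 56266 Ensembl genes of the deposited tables. They are the primary granule proteins MPO, ELANE, AZU1, PRTN3, CTSG and LYZ, the transcription factors CEBPA, CEBPB and CEBPE, and CSF3R, the receptor for the granulocyte growth factor G-CSF. Each symbol matched 1 gene. Their levels were read in 10 RNA-Seq libraries, 2 for each of 5 groups. All cells came from H1, an established human embryonic stem cell (hESC) line, either wild type (WT) or GATA2-/-. GATA2 is a zinc finger transcription factor of blood stem and progenitor cells. The GATA2-/- line is 1 clone in which TALEN-assisted targeting put a neomycin resistance cassette under a PGK promoter into both alleles, so the loss of GATA2 and other features of that clone cannot be told apart. The first group was undifferentiated GATA2-/- hESCs, whose headers give passages 38 and 58. The others came from co-culture with OP9, a mouse bone marrow stromal line. They were hemogenic endothelial cells (HEs, CD34+CD31+CD43-) sorted at day 8 and hematopoietic progenitor cells (HPCs, CD34+CD43+) sorted at day 9, each from WT and from GATA2-/- cultures. The 2 WT hESC samples were not analysed here, so a comparison with hESCs was possible within GATA2-/- cells alone. The labels do not say whether the 2 libraries of a group came from separate cultures, so p-values measure the spread between these libraries, which may be technical. Replicate 2 of every HE and HPC group carries a header tag that replicate 1 lacks, and its meaning is not given.

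Values are TPM, each gene's share of all transcripts in its library scaled to a fixed total, a level already divided by transcript length, so that levels of different genes may be set side by side. TPM holds no read depth, the depth of each library is therefore unknown, and no counting error can be attached to a value. Low values were coarse: among 2236 protein-coding genes with 1000 to 2000 exonic bases, the 5th percentile of the values above 0 lay between 0.2 and 0.46 TPM, depending on the library. The labelled stages carried their markers. SPN, which codes for CD43, was between 1.76 and 8.81 TPM in the 4 HE libraries and between 98.0 and 108 TPM in the 4 HPC libraries, and CD34 was between 605 and 1060 TPM in HEs and between 114 and 242 TPM in HPCs. PTPRC (CD45), the surface protein of nearly all mature white blood cells, did not exceed 3.09 TPM in any library. The targeted gene itself does not check the genotype, because reads from any transcript left at the disrupted locus enter its TPM. GATA2 stood at 110.9 and 94.1 TPM in GATA2-/- HEs and at 106.8 and 78.0 TPM in WT HEs, and at 112.5 and 83.8 TPM in GATA2-/- HPCs and at 290.1 and 204.2 TPM in WT HPCs (log2 fold change in HPCs −1.32, SE 0.36, adjusted p = 0.296 from limma).

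Neutrophils are made from myeloid progenitors in ordered steps. At the promyelocyte step the cell fills its primary (azurophil) granules with myeloperoxidase (MPO), which makes hypochlorous acid, with the serine proteases neutrophil elastase (ELANE), proteinase 3 (PRTN3) and cathepsin G (CTSG), with azurocidin (AZU1), a protease relative that has lost its catalytic activity, and with lysozyme (LYZ), which cleaves bacterial cell walls and is also a product of monocytes and macrophages. PU.1 (SPI1) and C/EBPα open this programme, C/EBPβ serves it in emergency granulopoiesis, and C/EBPε carries it on to the secondary granules, while CSF3R passes on the G-CSF signal. The study asked what the loss of GATA2 does to granulocyte output, and the comparisons here ask how the granulocyte genes stood in the sorted cells before colony culture.

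AZU1 (chr19:825097-832018), PRTN3 (chr19:840999-848175) and ELANE (chr19:851014-856247) lie side by side on the plus strand of chromosome 19 (GRCh37). LYZ lies on chromosome 12 (chr12:69742161-69748014, plus strand, 4 exons) and CSF3R on chromosome 1 (chr1:36931644-36948879, minus strand, 17 exons). MPO lies at chr17:56347216-56358296, CTSG at chr14:25042724-25045456, CEBPE at chr14:23586245-23589465 and CEBPA at chr19:33790840-33793440, all on the minus strand, and CEBPB at chr20:48807367-48809205 on the plus strand. The DNA in front of the chromosome 19 neighbours is shown because they carried different values, and that of CSF3R because it stood higher in every HPC library than in every HE library. Each sequence is the 250 bases (GRCh37, 5′ to 3′ on the strand of the gene) before the start of the canonical GENCODE transcript. Capitals mark GAGGAA, a core of PU.1 sites, or TTNNGNAA, a loose form of the C/EBP consensus, on either strand.
AZU1 (chr19:827587-827836, plus strand): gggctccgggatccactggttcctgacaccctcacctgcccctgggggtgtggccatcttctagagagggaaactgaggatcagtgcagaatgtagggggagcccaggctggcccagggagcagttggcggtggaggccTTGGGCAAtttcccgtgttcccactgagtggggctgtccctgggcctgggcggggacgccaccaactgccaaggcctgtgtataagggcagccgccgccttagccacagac
PRTN3 (chr19:840749-840998, plus strand): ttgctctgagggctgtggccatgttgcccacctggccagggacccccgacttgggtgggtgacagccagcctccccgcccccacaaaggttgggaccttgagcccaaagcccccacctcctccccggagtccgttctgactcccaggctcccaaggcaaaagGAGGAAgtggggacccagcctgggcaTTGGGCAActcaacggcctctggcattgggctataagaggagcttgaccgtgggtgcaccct
ELANE (chr19:852053-852302, plus strand): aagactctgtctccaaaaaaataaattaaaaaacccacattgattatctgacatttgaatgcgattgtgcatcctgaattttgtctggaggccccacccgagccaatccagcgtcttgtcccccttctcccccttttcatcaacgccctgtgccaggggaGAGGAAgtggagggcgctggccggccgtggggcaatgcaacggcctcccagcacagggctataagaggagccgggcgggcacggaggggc
CSF3R (chr1:36948515-36948764, minus strand): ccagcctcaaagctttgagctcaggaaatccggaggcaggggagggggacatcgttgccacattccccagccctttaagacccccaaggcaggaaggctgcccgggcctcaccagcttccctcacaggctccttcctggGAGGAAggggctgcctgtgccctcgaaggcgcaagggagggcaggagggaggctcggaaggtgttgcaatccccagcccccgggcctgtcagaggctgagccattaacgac

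GAGGAA was found before 6 of the 10 genes, namely MPO, ELANE, PRTN3, CTSG, CEBPE and CSF3R, and before 23.3% of 19042 protein-coding genes in windows of the same length. Its first base stood 90 bases before the start of ELANE, 88 before PRTN3 and 111 before CSF3R. TTNNGNAA was found before AZU1 (111 bases from the start) and PRTN3 (62 bases) and before 25.9% of all genes. The MYB core AACGG occurred before ELANE and PRTN3 (18.8% of all genes). The letters AGATAA, bound by GATA factors, occurred before MPO and ELANE (6.5% of all genes). Each motif was searched on both strands, no match overlapped another in these windows, and a match is a description of the letters, not of a bound site.

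The 10 genes did not form 1 block. In HPCs, the stage nearest to granulocytes, LYZ, CEBPB and CSF3R were plainly present, MPO, AZU1, CTSG, CEBPA and CEBPE stayed under 5 TPM in every library, and ELANE and PRTN3 were listed at 0 in all 4 libraries. Between genotypes no member passed the test at either stage. Between stages LYZ rose in both genotypes. Of the 10 members, 6 reached a TPM of 1 in 2 or more libraries and were tested (AZU1, CTSG, LYZ, CEBPA, CEBPB and CSF3R), and 4 did not (MPO, ELANE, PRTN3 and CEBPE). AZU1 was tested only by virtue of its HPC libraries, 3 of which reached 1 TPM, so its call as higher in GATA2-/- HPCs than in HEs is given as a description.

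**Figure D1:**
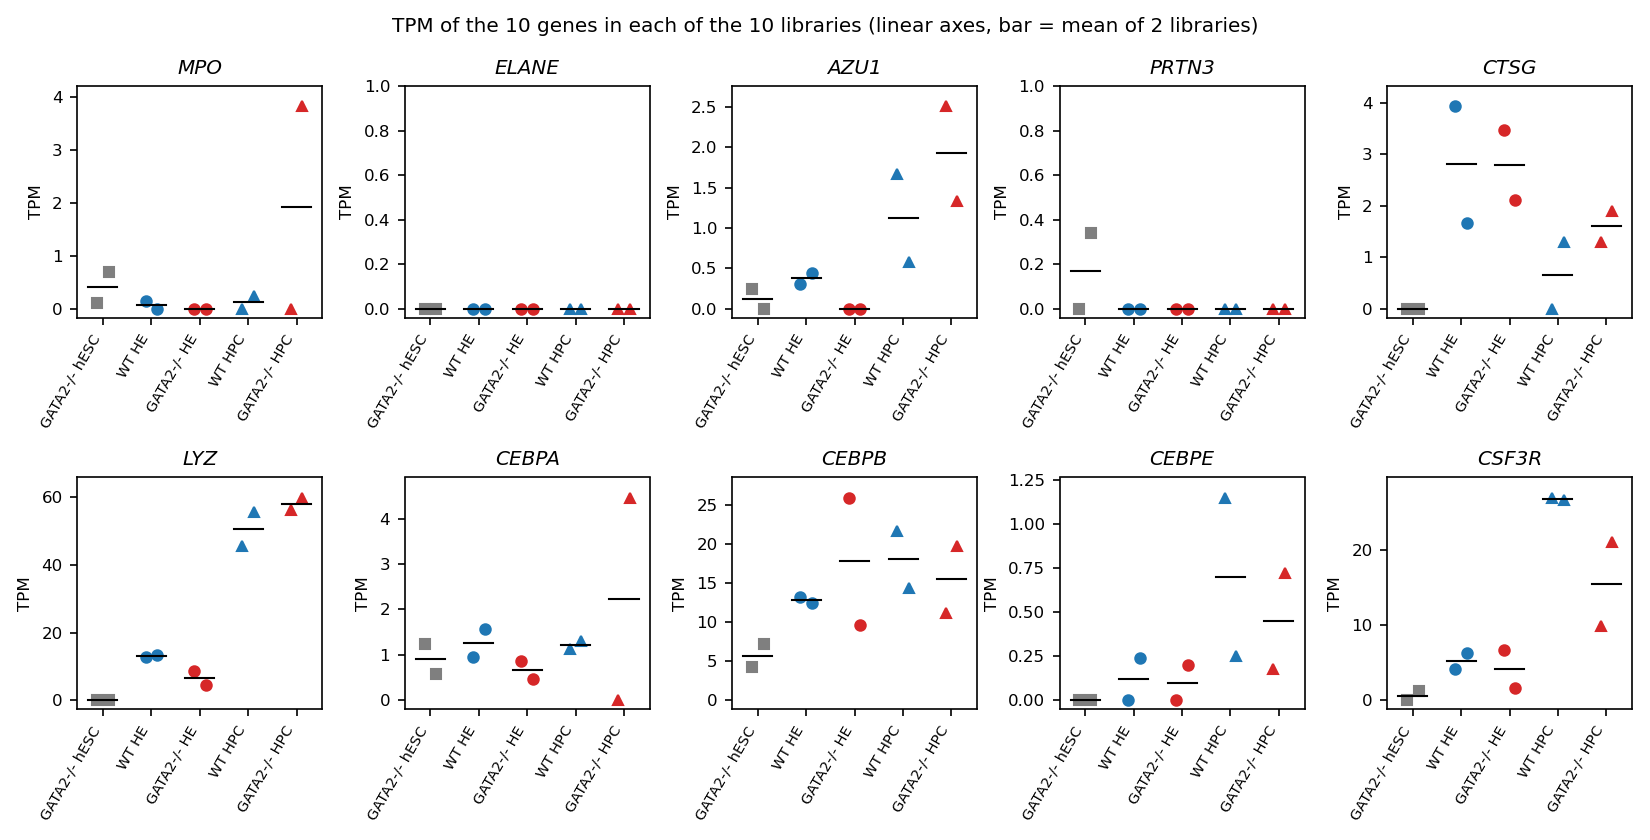
TPM of each gene (linear vertical axes, a different range for each gene) in the 10 libraries, by group along the horizontal axis, with points for libraries and a bar for the mean of 2. LYZ and CSF3R are highest in the HPC libraries, CTSG is higher in HEs than in HPCs within each genotype, and ELANE lies at 0 throughout.

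Among the granule proteases the levels were low or 0. ELANE, the protease mutated in congenital neutropenia, was listed at 0 in each of the 10 libraries, as were 9.18% of 19320 protein-coding genes. PRTN3 was listed at 0.34 TPM in 1 GATA2-/- hESC library and at 0 in the other 9. None of the 30-base windows of the ELANE and PRTN3 transcripts occurs in a transcript of another gene. None of 30 housekeeping genes was listed at 0 in any library. Of 82 rows with symbols of cytosolic ribosomal proteins 2 were listed at 0 in some library, RPL10L and a second, low row of the symbol RPL26.

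MPO was listed at 3.82 and 0 TPM in GATA2-/- HPCs and at 0 and 0.24 TPM in WT HPCs. In WT HEs it was 0.15 and 0 TPM, in GATA2-/- HEs it was 0 in both, and in GATA2-/- hESCs it was 0.11 and 0.7 TPM. GATA2-/- HPC replicate 2 thus held more MPO than the other 9 libraries together, and its partner was listed at 0. That library also gave the highest value of CEBPA.

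AZU1, the first gene of the chromosome 19 group, was 1.67 and 0.58 TPM in WT HPCs and 2.51 and 1.34 TPM in GATA2-/- HPCs. In WT HEs it was 0.31 and 0.44 TPM, in GATA2-/- HEs it was listed at 0 in both, and in GATA2-/- hESCs it was 0.25 and 0 TPM. Every HPC library stood above every HE library. In GATA2-/- cells the difference between HE and HPC had an adjusted p of 0.0361 (limma), and no fold is given against a group at 0. In WT cells the log2 fold change was 0.58 (SE 0.39, adjusted p = 0.459 from limma). The GATA2-/- call was lost when any 1 of its 4 libraries was left out (adjusted p = 0.0534 to 0.139).

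CTSG, the third serine protease, ran the other way. It was 3.93 and 1.67 TPM in WT HEs and 3.47 and 2.12 TPM in GATA2-/- HEs. In HPCs it was 0 and 1.3 TPM in WT and 1.3 and 1.9 TPM in GATA2-/- cells, and in hESCs it was listed at 0 in both libraries. In each genotype both HPC libraries stood below both HE libraries. The difference did not pass the test in WT cells (log2 fold change −1.26, SE 0.50, adjusted p = 0.172 from limma) or in GATA2-/- cells (−0.53, SE 0.50, adjusted p = 0.554).

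The summed TPM of the granule members other than LYZ stayed small at every stage, at 4.39 and 2.11 in WT HEs, 3.47 and 2.12 in GATA2-/- HEs, 1.67 and 2.12 in WT HPCs, and 3.81 and 7.06 in GATA2-/- HPCs. The HE and HPC groups overlapped in WT cells. MPO made up 3.82 of the 7.06 TPM in the highest library.

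LYZ was the most abundant granule member and the one with a stepwise course. It was listed at 0 in both GATA2-/- hESC libraries. In HEs it was 12.8 and 13.5 TPM in WT (mean 13.1 ± 0.502 SD, n = 2) and 8.63 and 4.37 TPM in GATA2-/- cells (6.5 ± 3.01, n = 2). In HPCs it was 45.5 and 55.6 TPM in WT (50.5 ± 7.08, n = 2) and 56.4 and 59.9 TPM in GATA2-/- cells (58.1 ± 2.47, n = 2). The groups followed the order hESC, GATA2-/- HE, WT HE, WT HPC and GATA2-/- HPC with no overlap, although neither pair of genotype neighbours differed by the test. From HE to HPC LYZ rose by 1.86 on the log2(TPM + 1) scale in WT (SE 0.30, adjusted p = 0.00558 from limma) and by 3.04 in GATA2-/- cells (SE 0.30, adjusted p = 0.00052 from limma).

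LYZ was the only member called in WT, where 9.91% of all 21543 tested genes were called in either direction, 3.32% as higher and 6.59% as lower. In both genotypes fewer of all tested genes were called in each fit with 1 library left out than in the fit on all 10. In GATA2-/- cells 2 members, LYZ and AZU1, were called, both as higher, against 12.7% of all genes called, 5.5% as higher and 7.24% as lower, but AZU1 entered the test only through HPC libraries and its call was lost in all 4 fits with a library left out. The WT call on LYZ was lost without WT HPC replicate 2 (log2 fold change 1.72, adjusted p = 0.0534 from limma). When each comparison was fitted on its own 4 libraries, no gene passed in either genotype, and LYZ had adjusted p-values of 0.0767 (WT) and 0.065 (GATA2-/-) from limma.

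Much of the LYZ transcript outside its coding sequence is shared with other transcripts. Of 1461 windows of 30 bases along the canonical transcript, 694 (47.5%) occur in transcripts of other genes, 6660 genes in all. All of these lie outside the coding sequence, where 0 of 415 windows are shared. With windows of 50 bases, 630 of 1441 (43.7%) are shared with transcripts of 446 other genes, and 0 of 395 in the coding sequence. The effect on the values was not tested.

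Some markers of other blood cells moved with LYZ. Of 14 monocyte and macrophage markers 8 were tested, and AIF1, TYROBP and FCER1G rose from HE to HPC in both genotypes. Over all tested genes 3.32% (WT) and 5.5% (GATA2-/-) were called as higher. VCAN fell in WT, a call lost when any 1 library was left out. MRC1, a further macrophage marker, was not called but stood lower in every HPC library than in every HE library. Its log2 fold change was −2.23 in WT and −2.14 in GATA2-/- cells (SE 0.71, adjusted p = 0.0895 and 0.0872, limma). The summed TPM of the list was 93.7 and 111 in WT HEs, 93.0 and 107 in GATA2-/- HEs, 556.5 and 774.7 in WT HPCs, and 341.4 and 481.6 in GATA2-/- HPCs. AIF1, a calcium-binding protein of macrophages, had the highest mean over the 10 libraries (98.7 TPM), just above FCER1G (97.5 TPM). By group mean AIF1 led in WT HPCs (286 against 213 TPM). FCER1G led in GATA2-/- HPCs (176 against 154 TPM) and in the HEs of both genotypes. Other markers of the list differed among themselves. CD14 was listed at 0 in all 4 HPC libraries, and MARCO, C1QA, C1QB and C1QC were listed at 0 in all 10. The scavenger receptor CD163 was 3.48 to 9.05 TPM and CD68, a lysosomal protein, 3.34 to 16.7 TPM in HPCs, with no call from HE to HPC, and both were called as higher in GATA2-/- HPCs than in hESCs (adjusted p = 0.0459 and 0.0388, limma). In bulk RNA fewer cells of a type and less RNA per cell cannot be told apart, and the part of these markers in the LYZ result was not tested.

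The C/EBP factors, which switch granule genes on, showed no change that passed the test in any comparison of the fit on all 10 libraries. With quantile normalization CEBPB passed as higher in GATA2-/- HEs than in hESCs (1.41, adjusted p = 0.0398, limma). CEBPA, the factor needed to make the first granulocyte progenitors, was 0.96 and 1.56 TPM in WT HEs, 0.86 and 0.47 in GATA2-/- HEs, 1.13 and 1.3 in WT HPCs, 0 and 4.46 in GATA2-/- HPCs, and 1.23 and 0.58 in GATA2-/- hESCs. Both GATA2-/- HE libraries stood below both WT HE libraries, whereas the HPC groups overlapped. The log2 fold change between genotypes was −0.44 in HEs and 0.08 in HPCs (SE 0.69, adjusted p = 1 for both from limma). In HPCs the sign rested on 1 library: without GATA2-/- HPC replicate 2 the log2 fold change was −1.15 (adjusted p = 0.399 from limma), and without replicate 1 it was 1.30. Without replicate 1 CEBPA also passed as higher in GATA2-/- HPCs than in hESCs (1.54, adjusted p = 0.0407). CEBPA is a gene of 1 exon, and 40.4% of its 30-base windows also occur in transcripts of 2 other genes, so its level is uncertain.

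CEBPB, the factor of emergency granulopoiesis and of macrophages, was present at every stage. It was 4.21 and 7.2 TPM in GATA2-/- hESCs, 13.2 and 12.5 in WT HEs, 26.0 and 9.69 in GATA2-/- HEs, 21.8 and 14.4 in WT HPCs, and 11.3 and 19.7 in GATA2-/- HPCs. The hESC libraries were the lowest, and the other groups overlapped except that both WT HPC libraries stood above both WT HE libraries. Between genotypes the log2 fold change was 0.29 in HEs and −0.23 in HPCs (SE 0.47, adjusted p = 1 and 0.934 from limma). Of its 30-base windows 12.5% occur in CEBPB-AS1, CEBPD or CEBPE. CEBPE, which drives the secondary granules, was 1.15 and 0.25 TPM in WT HPCs, 0.18 and 0.72 in GATA2-/- HPCs, at most 0.24 in HEs and 0 in hESCs, and was too low to be tested.

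CSF3R carries the G-CSF signal that drives neutrophil output. It was 0 and 1.22 TPM in GATA2-/- hESCs, 4.13 and 6.31 in WT HEs, and 6.69 and 1.59 in GATA2-/- HEs. In HPCs it was 27.0 and 26.7 TPM in WT (26.8 ± 0.191 SD, n = 2) and 9.89 and 21.1 TPM in GATA2-/- cells (15.5 ± 7.90 SD, n = 2). All HPC libraries stood above all HE libraries, and both WT HPC libraries stood above both GATA2-/- HPC libraries. From HE to HPC the log2 fold change was 2.18 in WT (SE 0.60, adjusted p = 0.0539 from limma) and 1.80 in GATA2-/- cells (SE 0.60, adjusted p = 0.0891 from limma), neither past the threshold of 0.05. With quantile normalization the WT value was 2.26 and passed (adjusted p = 0.0422). Without GATA2-/- HE replicate 1 the GATA2-/- value was 2.58 and passed (adjusted p = 0.0499).

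**Figure D2:**
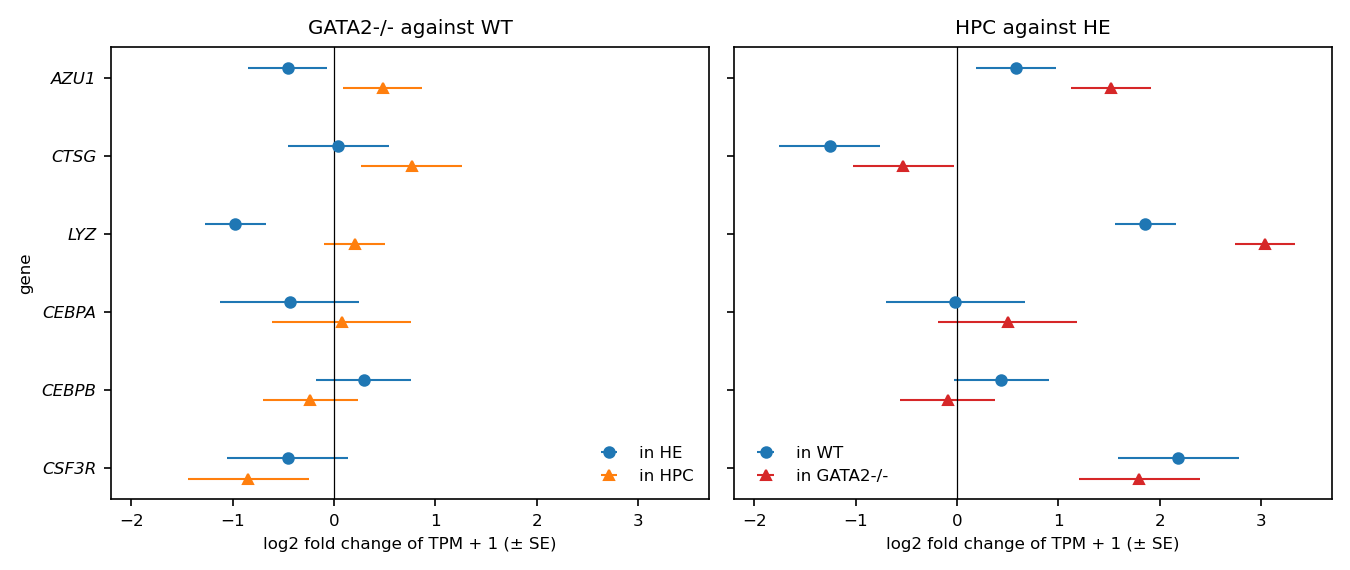
Log2 fold changes of TPM + 1 (horizontal axes) for the 6 tested genes (vertical axis), between genotypes on the left and between stages on the right, as points with SE bars from limma. On the right LYZ lies at 1.86 in WT and 3.04 in GATA2-/- cells, and on the left every member has an adjusted p above 0.05.

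Between GATA2-/- and WT cells none of the 6 tested members was called. In HEs the test called 0.0186% of all genes (4 of 21543, 0.00464% as higher and 0.0139% as lower, and 1045 at an unadjusted p under 0.05), and in HPCs 0.0603% (13 of 21543, 0.0279% as higher and 0.0325% as lower, and 1925 unadjusted). With 1 library left out there were 0 such genes in HEs in all 4 fits, and in HPCs 9 without GATA2-/- HPC replicate 1 and 0 in the other 3. LYZ came nearest in HEs, at a log2 fold change of −0.98 (SE 0.30, unadjusted p = 0.0104, adjusted p = 0.792 from limma), with both GATA2-/- libraries below both WT libraries. It was the only member with an unadjusted p under 0.05 in HEs, and there was none in HPCs. In HPCs LYZ differed by 0.20 (SE 0.30, adjusted p = 0.881) with the GATA2-/- libraries on top. CSF3R differed by −0.46 in HEs and by −0.84 in HPCs (SE 0.60, adjusted p = 1 and 0.705 from limma). AZU1 differed by 0.48 in HPCs (SE 0.39, adjusted p = 0.739) and CTSG by 0.04 in HEs and 0.77 in HPCs (SE 0.50, adjusted p = 1 and 0.694). A p above the threshold does not show equal levels.

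Whether the effect of genotype differed between the stages was tested directly. In the fit on all 10 libraries no gene passed this test (0 of 21543, and 1281 at an unadjusted p under 0.05, limma). Genes other than the members passed in some fits with 1 library left out. Among members LYZ had the smallest p, with an effect in HPCs that exceeded that in HEs by 1.18 on the log2 scale (SE 0.42, unadjusted p = 0.022, adjusted p = 0.755 from limma). The other 5 ranged from −0.53 for CEBPB to 0.94 for AZU1 and had adjusted p-values of at least 0.882.

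Against GATA2-/- hESCs, 2 members were called in GATA2-/- HEs and 3 in GATA2-/- HPCs, all as higher. These comparisons share the hESC libraries, and 30% and 30.6% of all tested genes were called in them (13.9% and 14.2% as higher, 16.1% and 16.4% as lower). In HEs the called members were LYZ (adjusted p = 0.000174) and CTSG (adjusted p = 0.0197), both listed at 0 in hESCs. In HPCs they were LYZ (adjusted p = 4.06e-06), AZU1 (log2 fold change 1.36, SE 0.39, adjusted p = 0.0287, tested only through its HPC libraries) and CSF3R (3.38, SE 0.60, adjusted p = 0.00294, all from limma). On the compared libraries alone CSF3R (adjusted p = 0.0508) and AZU1 (0.0645) missed the threshold and CTSG passed as higher in HPCs (0.0294), as it did with a pseudocount of 0.1 (0.0361). The CTSG call was lost without GATA2-/- hESC replicate 1 or 2 (adjusted p = 0.0972 and 0.0942) and without GATA2-/- HE replicate 1 (0.112). The AZU1 call was lost without hESC replicate 1 (0.0553) or 2 (0.0997) and without HPC replicate 1 (0.121). Without GATA2-/- HE replicate 2, CEBPB (2.04, adjusted p = 0.0181) and CSF3R (2.37, adjusted p = 0.0321) also passed in HEs.

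The granule genes around the members were read from lists chosen with earlier results of these data known. Of 12 partners of the primary granule 7 were tested. BPI, RNASE3, DEFA3 and DEFA4, which code for antimicrobial proteins of these granules, were listed at 0 in all libraries, and PRSS57, a further granule protease, reached at most 2.19 TPM. The abundant partners are lysosomal or protective proteins of many cell types: CD63, a membrane protein of granules and lysosomes, was between 537 and 819 TPM in HPCs, CTSC, the enzyme that activates the serine proteases, between 111 and 139 TPM, and GUSB between 31.2 and 51.2 TPM. SERPINB1, an inhibitor of elastase and proteinase 3, rose from HE to HPC by 1.14 in WT (SE 0.27, adjusted p = 0.0318) and by 1.24 in GATA2-/- cells (SE 0.27, adjusted p = 0.0187), and SRGN, the proteoglycan that packs the proteases, by 2.43 and 2.39 (SE 0.61, adjusted p = 0.0394 and 0.035, limma). In WT both calls were lost when any 1 of the 4 libraries was left out (adjusted p up to 0.164 for SERPINB1 and 0.196 for SRGN), and in GATA2-/- cells some were (up to 0.13 and 0.198). The median over the 7 tested partners was 1.00 in WT and 0.40 in GATA2-/- cells, against −0.01 and 0.03 over all tested genes. Taken gene by gene, the difference between the genotypes had a median of −0.04 (0.08 over all tested genes), and none of the 7 passed the test of it. Of the 7 tested partners only SRGN and SERPINB1 were called, as higher in each genotype. Over all tested genes 3.32% (WT) and 5.5% (GATA2-/-) were called as higher. CTSC was not called (log2 fold change −0.18 in WT and −0.23 in GATA2-/- cells), and the proteases stayed low.

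Of 13 secondary and tertiary granule genes 5 were tested, and CAMP, MMP8 and PGLYRP1 were listed at 0 in all libraries. LCN2, which binds bacterial siderophores, was 6.27 and 7.24 TPM in WT HPCs and 3.51 and 7.93 TPM in GATA2-/- HPCs, against at most 0.6 TPM in HEs. It entered the test only through its HPC libraries, and was called as higher in both genotypes (adjusted p = 0.00947 in WT and 0.00702 in GATA2-/- cells, limma; up to 0.0748 and 0.0511 with a library left out). MMP25, a membrane metalloproteinase, fell by 2.59 in both (SE 0.43, adjusted p = 0.00642 and 0.00515, limma), with the WT call lost with a library left out (up to 0.0528). MMP9 and ARG1 were not called. Of 12 genes of mature neutrophils 3 were tested. FCGR3B, CXCR1, S100A8, S100A12 and MNDA were listed at 0 in all libraries, and CXCR2 and ITGAM were not called. C5AR1, the receptor of complement C5a, rose in GATA2-/- cells by 1.68 (SE 0.39, adjusted p = 0.0225, limma), a call lost with any 1 library left out. In WT its value was 1.29 (adjusted p = 0.0732), and the difference between the genotypes was 0.40 (adjusted p = 0.952).

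All 6 NADPH oxidase genes, which make the neutrophil's superoxide, were tested. NCF4 was 9.84 and 10.8 TPM in WT HPCs and 3.79 and 11.3 TPM in GATA2-/- HPCs, and at most 0.93 TPM elsewhere. It entered the test only through its HPC libraries, and was called as higher in HPCs than in HEs in both genotypes (adjusted p = 0.00677 in WT, up to 0.0571 with a library left out, and 0.00624 in GATA2-/- cells, limma). RAC2, the small GTPase of the complex, rose by 1.96 in WT (SE 0.33, adjusted p = 0.00655) and by 1.28 in GATA2-/- cells (SE 0.33, adjusted p = 0.0347, limma). The GATA2-/- call was lost with any 1 library left out, and the WT call was not kept in every such fit. CYBA, the small membrane subunit, had the highest mean over the 10 libraries. It was 163 and 214 TPM in WT HPCs and 88.3 and 89.3 TPM in GATA2-/- HPCs (log2 fold change −1.07, SE 0.19, adjusted p = 0.153, limma). RAC2 stood above it in each HPC library, at 215 and 220 TPM in WT and 114 and 135 TPM in GATA2-/- cells. CYBB, the phagocyte-specific partner of CYBA, did not exceed 1.99 TPM. NCF1 has near-identical copies in the genome, so its values are uncertain.

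**Figure D3:**
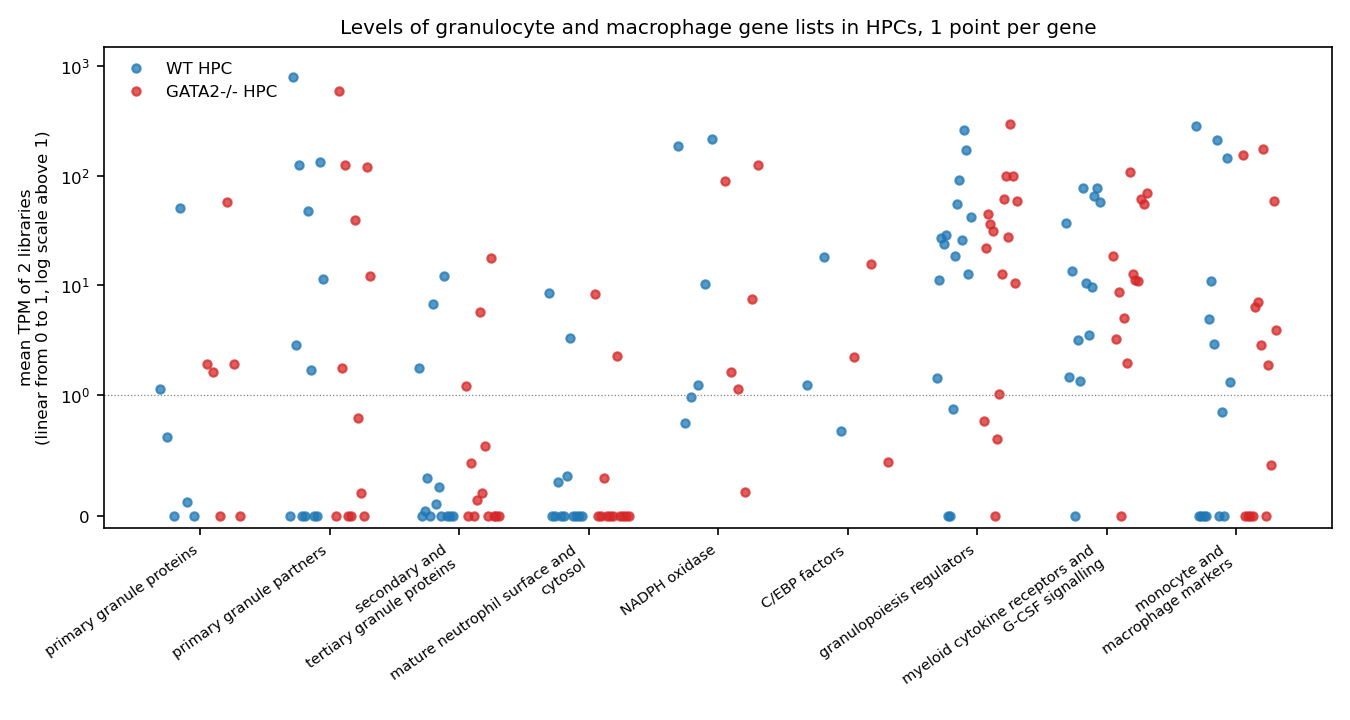
Mean TPM of 2 libraries (vertical axis, linear from 0 to 1 and logarithmic above) for each gene of 9 lists (horizontal axis) in WT and GATA2-/- HPCs. Many granule and mature neutrophil genes lie at or near 0 while LYZ has means of 50.5 and 58.1, and among regulators RUNX1 reaches 295 in GATA2-/- HPCs.

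Of 16 regulators of granulopoiesis 15 were tested. From HE to HPC 4 rose and 1 fell in WT, and 5 rose and 3 fell in GATA2-/- cells (5 and 8 of 15, against 9.91% and 12.7% of all tested genes). ETV6, LEF1 and CEBPD were called in GATA2-/- cells alone, and none differed between genotypes by the test of the difference (adjusted p = 0.755, 0.98 and 0.923, limma). The LEF1 call was lost with any 1 library left out, and the ETV6 and CEBPD calls were not kept in every such fit. Over all 15 tested regulators the median log2 fold change was −0.03 in WT and 0.77 in GATA2-/- cells, against −0.01 and 0.03 over all tested genes. Taken gene by gene, the difference between the genotypes had a median of 0.32 (0.08 over all tested genes), and none of the 15 passed the test of it. SPI1 (PU.1) was 35.8 and 22.2 TPM in WT HEs, 6.87 and 2.41 in GATA2-/- HEs, 194.8 and 150.8 in WT HPCs, and 81.0 and 117.8 in GATA2-/- HPCs. It stood lower in GATA2-/- cells at both stages without overlap, and did not pass the genotype test in HEs (log2 fold change −2.50, SE 0.41, adjusted p = 0.25) or in HPCs (−0.80, SE 0.41, adjusted p = 0.624, limma). It rose between the stages by 2.56 in WT (adjusted p = 0.00564; up to 0.0593 with a library left out) and by 4.25 in GATA2-/- cells (adjusted p = 0.000498, limma, SE 0.41 for both). MYB, needed for progenitor growth, rose by 2.15 and 4.09 (SE 0.34, adjusted p = 0.00495 and 0.000304, limma). RUNX1 and MEIS1 also rose in both genotypes. Neither WT call was kept with any 1 library left out, and the MEIS1 call in GATA2-/- cells was not kept in every such fit. HOXA9, counted among the genes that fell, was listed at 0 in all 4 HPC libraries and both hESC libraries and was 5.22 TPM or more in HEs, so that it entered the test only through its HE libraries. TRIB2 was not called.

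Of 13 receptors and signalling genes around CSF3R 12 were tested, and 2 rose and 2 fell between the stages in each genotype, against 9.91% (WT) and 12.7% (GATA2-/-) of all tested genes called. CSF1R, the macrophage growth factor receptor, rose by 2.84 in WT and 2.68 in GATA2-/- cells (SE 0.54, adjusted p = 0.0118 and 0.0127, limma; up to 0.094 and 0.0975 with a library left out). KIT fell by 2.38 and 1.88 (SE 0.27, adjusted p = 0.00103 and 0.00248). SOCS3, a brake on G-CSF signalling, fell by 2.88 and 2.32 (SE 0.26, adjusted p = 0.000535 and 0.000824, limma). STAT5A rose in WT and IL6ST in GATA2-/- cells. The STAT5A call was lost with any 1 library left out, and the IL6ST call was not kept in every such fit. STAT3 and STAT5B, which carry the signal to the nucleus, were not called, at 59.0 to 70.4 and 57.1 to 72.5 TPM over the HPC libraries. No gene of the granule, neutrophil, oxidase, regulator or receptor lists was called between genotypes at either stage.

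Markers of other lineages were read in the same libraries. The summed TPM of 9 erythroid markers was 4883 and 13729 in WT HPCs and 7278 and 15156 in GATA2-/- HPCs, and replicate 2 was the higher in both genotypes. HBG2, a fetal globin, had the highest mean over the 10 libraries. Within HPCs the highest mean was that of HBE1 in WT (2972 TPM, against 2861 for HBG2) and of HBA1 in GATA2-/- cells (3241 TPM, against 3219 for HBG2). From HE to HPC 8 of the 9 rose in WT and 9 in GATA2-/- cells, against 3.32% and 5.5% of all tested genes called as higher. The EPOR call in GATA2-/- cells was lost with any 1 library left out, and the KLF1 call in WT was not kept in every such fit. HBZ and HBG1, and PPBP among the megakaryocyte markers, entered the test only through HPC libraries. Of 6 megakaryocyte markers 4 were called as higher in WT and 3 in GATA2-/- cells (3.32% and 5.5% of all tested genes), with the call on PPBP in WT lost with a library left out (adjusted p up to 0.0813, limma). PF4, a platelet chemokine, was the single list gene called between genotypes (log2 fold change in HEs −2.79, SE 0.27, adjusted p = 0.0249, limma), a call lost with any 1 library left out. Of 9 mast cell, basophil and eosinophil markers 5 were tested. FCER1A, at 1.55 and 2.31 TPM in WT HPCs and below 1 elsewhere, was tested only through that group, and its call there was lost with any 1 library left out (adjusted p up to 0.183, limma). HDC, the histamine-making enzyme, rose by 4.87 and 5.14 (SE 0.43, adjusted p = 0.000507 and 0.000304, limma). CPA3 was 4.99 and 2.78 TPM in WT HPCs and 5.78 and 1.25 TPM in GATA2-/- HPCs. In HEs it was 2.72 and 0.64 TPM in WT and 0 in both GATA2-/- libraries. PRG2 was 1.35 and 8.51 TPM in WT HPCs, through which alone it was tested, and 0 in GATA2-/- HPCs. Neither was called between HE and HPC or between genotypes. CLC was 10.3 and 12.1 TPM in hESCs and 0 in HEs and HPCs. The tryptases TPSAB1 and TPSB2 and the eosinophil peroxidase EPX stayed at or below 0.5 TPM. All 9 endothelial markers were called as lower in HPCs in both genotypes, against 6.59% (WT) and 7.24% (GATA2-/-) of all tested genes. Of these markers SOX17 entered the test only through its HE libraries. Of 8 stromal markers COL1A2, COL3A1 and LUM were called as lower in HPCs in each genotype, LUM having entered the test only through its HE libraries. The COL1A2 calls (adjusted p up to 0.0688 in WT and 0.202 in GATA2-/- cells, limma) and the LUM call in GATA2-/- cells (up to 0.0648) were lost with a library left out. COL3A1 stood at 131 to 229 TPM in HEs and 1.93 to 9.85 TPM in HPCs. In WT POSTN rose by 2.16 (SE 0.51, adjusted p = 0.0304, limma), a call lost with any 1 library left out (up to 0.182). In GATA2-/- cells its value was 1.64 (adjusted p = 0.0716). Pluripotency markers were not called between HE and HPC. The part of these markers in the levels of the 10 genes was not tested.

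Along chromosome 19 the genes flanking the granule group were read as well. PTBP1, a splicing regulator 2 genes before AZU1, was between 460 and 662 TPM in all libraries, and MED16, 2 genes after ELANE, between 28.4 and 41.6 TPM. LPPR3, next to AZU1, was between 5.59 and 44.8 TPM, and R3HDM4 between 31.7 and 96.6 TPM. CFD, which codes for complement factor D and follows ELANE directly, resembled AZU1 in level, with at most 3.51 TPM and its higher values in HPCs, except for 1 GATA2-/- HPC library at 0. PALM lay between 8.95 and 29.9 TPM, C19orf21 did not exceed 0.15 TPM and KISS1R did not exceed 2.5 TPM. Of the 8 flanking genes 5 were thus above 5 TPM in every library, and C19orf21, CFD and KISS1R were as low as the granule genes.

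For each tested member the genes with the most similar course over the 10 libraries were found by Pearson's r of log2(TPM + 1), as a description, since the libraries share stages and normalization. LYZ was most like GABRE (r = 0.9955), CD226 (0.9953) and MYL4 (0.9952), each of which is low in hESCs, intermediate in HEs and high in HPCs. CSF3R was most like TCEAL1 (r = 0.984), RP11-1334A24.6 (0.979) and CYTH4 (0.972). AZU1 was most like TAB2 (r = 0.971), GMCL1 (0.970) and NUDT19 (0.968), and CTSG like ZDHHC14 (0.973), AC007277.3 (0.960) and NNMT (0.957). CEBPB was most like GTPBP2 (r = 0.982), TINF2 (0.959) and EGFL8 (0.947), and GTPBP2 and EGFL8 were, like CEBPB, highest in GATA2-/- HE replicate 1. CEBPA had no close match (C9orf142 at 0.878, MDM4 at 0.858 and RP11-317N8.5 at 0.858). No other member was among the 3 nearest genes of any member.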

How the data were processed

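Sorted cells were sequenced as bulk RNA. Per the study's methods, the authors trimmed single-end reads with Trimmomatic, aligned them with Bowtie and used hg19. The submitters' processing notes also name RSEM and mm10 without a role. The deposited values are TPM per Ensembl gene (56266 genes, 1 file per library). No read counts were used, so depth and counting error are unknown. Headers of HE and HPC libraries give the day, and those of hESC libraries the passage.

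Values were tested as log2(TPM + 1) with limma 3.58.1 (R 4.3.3) in a single model of all 10 libraries with a mean-variance trend. Genes with a TPM of 1 or more in at least 2 libraries entered (21543 genes), with Benjamini-Hochberg adjustment over all of them and a threshold of 0.05. Fold changes are on the log2(TPM + 1) scale, which understates changes of low genes. The steps were tested on simulated data. Tables were handled in Python 3.11.15 (pandas 2.3.3, numpy 2.4.6). Promoters were cut from the GRCh37 genome by GENCODE 44 lifted to that build, and 1 of them is not reported here. Shared sequence was searched in windows of 30 and 50 bases, the short and long ends of the read lengths. Alternatives were a pseudocount of 0.1, quantile normalization, no filter, a fit on the compared libraries alone, no trend, a replicate block and leaving out each library.

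The members and lists were chosen with earlier results of these data known. Named are the 10 members, GATA2, up to 4 genes of highest mean TPM per list and those called between genotypes, 4 neighbours on each side of the chromosome 19 group, and the 3 genes most like each tested member. Further list genes were named after their values were seen.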

Additional observations from a re-analysis of the deposited data

Results flagged for a closer look

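The difference between genotypes in LYZ pointed in opposite directions at the stages. Both GATA2-/- libraries stood below both WT libraries in HEs (log2 fold change −0.98) and above them in HPCs (0.20). The test of the difference, 1.18 (SE 0.42, unadjusted p = 0.022, adjusted p = 0.755, limma), did not pass.

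FCER1G, the shared signalling chain of Fc receptors, showed the opposite course, higher in both GATA2-/- libraries in HEs (0.27) and lower in both in HPCs (−0.27). Its difference of −0.54 (SE 0.25, unadjusted p = 0.0595, adjusted p = 0.863, limma) did not pass either. Groups of 2 are too small for a test of outlying libraries.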

How the results depend on the processing

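No member was called between genotypes, or in the test of the difference between stages, under any alternative run. Outside leave-one-out fits, 238 member fold changes kept direction and side of the threshold, 4 newly passed, 5 no longer passed and 5 reversed. The reversals were all in CEBPA: with a pseudocount of 0.1 it gave −0.96 between genotypes in HPCs, −0.13 for HPC against HE and −0.49 for HPC against hESC in GATA2-/- cells, and −0.12 for the difference between stages, and with quantile normalization 0.0024 for HPC against HE in WT. Quantile normalization called 2 members for HPC against HE in WT. With only the libraries of the comparison 0 members were called for HPC against HE in either genotype, as for all 21543 genes. The cause was not tested.

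Leaving out 1 library gave 1 to 4 members called for HE against hESC, 2 to 3 for HPC against hESC and 1 to 2 for HPC against HE in GATA2-/- cells, and 0 to 1 for HPC against HE in WT. CEBPA then ranged from −1.15 to 1.30 between genotypes in HPCs, from −0.73 to 1.72 for HPC against HE in GATA2-/- cells, from −0.21 to 0.18 in WT, from −0.43 to 0.066 for HE against hESC, from −0.91 to 1.54 for HPC against hESC, and from −0.71 to 1.74 for the difference between stages. CEBPB ranged from −0.37 to 0.96 between genotypes in HEs, from −0.61 to 0.15 in HPCs, from −0.76 to 0.58 for HPC against HE in GATA2-/- cells, and from −1.19 to 0.14 for the difference between stages. CSF3R ranged from −1.24 to 0.33 between genotypes in HEs and from −1.17 to 0.40 for the difference between stages, and CTSG from −0.40 to 0.48 between genotypes in HEs.

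Over all genes, the 4 calls between genotypes in HEs became 13 with no filter (33200 genes tested), 12 without trend and 2 with the replicate block, and the 13 in HPCs became 6 with a pseudocount of 0.1, 20 without trend and 3 with the block, and both became 0 with only the libraries of the comparison. The block changed no member's call (LYZ for HPC against HE in WT had adjusted p = 0.00887, limma). Deviations of same-numbered libraries correlated by −0.0141 to 0.1227 over pairs of groups, highest for the HE groups. The numbers were not taken to pair the libraries, although replicate 2 of the HE and HPC groups shares a header tag of unknown meaning. With no filter MPO, PRTN3 and CEBPE were tested and did not pass in any comparison.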
